A study of Mus musculus with 12 samples.

Results

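Expression of 38 genes of hepatic stellate cells, fibroblasts and the extracellular matrix was examined in 12 RNA sequencing libraries of whole mouse liver. The genes came from a list of 38 and had to reach 10 normalized reads in no fewer than 3 libraries, a minimum that all 38 met, as did 13871 of the 47263 genes in the table. A normalized read is a gene's read count divided by a factor of its library. Lox lay nearest to the minimum, with 7 libraries at or above it, and Timp1 reached it in 9 libraries, while 36 members reached it in all 12. No listed gene fell outside.

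The study asked what hepatocyte Sirt2 contributes to liver tumour formation driven by oncogenes. Its 4 groups of 3 libraries were Sirt2 liver knockout (KO) mice given MET/CAT, wild-type (WT) mice given MET/CAT, KO mice given GFP and WT mice given GFP. MET/CAT stands for transposon plasmids that express c-MET and a truncated beta-catenin (DN90) from an EF1a promoter, delivered with Sleeping Beauty transposase by hydrodynamic injection into the tail vein. Mice were 6 to 8 weeks old when injected, were matched for age and gender, ate a standard diet and were killed 8 weeks later. Whether the 3 libraries of a group came from separate mice is not stated, so p-values measure only the spread between these libraries. The groups follow the sample titles. The treatment field of the labels instead follows genotype, giving MET/CAT throughout for KO mice and GFP throughout for WT mice, and is at odds with 6 titles. The series text describes the knockout as specific to hepatocytes, so stellate cells were not its target. The sources used here do not name the Cre driver or the GFP plasmid, and the protocol covers the MET/CAT mixture alone.

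Hepatic stellate cells lie between hepatocytes and the sinusoidal endothelium and store retinoid when quiescent. On injury or in tumours they become contractile myofibroblasts that secrete fibrillar collagens, a change driven largely by transforming growth factor beta and platelet-derived growth factor. Matrix accumulates when its synthesis and crosslinking outrun its removal by matrix metalloproteinases, which tissue inhibitors of metalloproteinases (TIMPs) restrain. In whole liver, fewer cells of a type and less RNA per cell cannot be told apart.

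The libraries held 18208879 to 24352961 reads, and a read was worth 0.753 to 1.204 normalized reads. Sirt2, the targeted gene, averaged 228 ± 24.4 and 180.3 ± 53.5 normalized reads (SD, n = 3 each) in KO MET/CAT and KO GFP livers, against 973 ± 83.8 in WT MET/CAT and 824 ± 98.9 in WT GFP livers. KO GFP replicate 3 stood apart, at −88.95 on the first principal component against −33.2 to 52.8 in the other 11 libraries, and values without it are given beside the results it moved most. All 16 listed markers of quiescent stellate cells had reads in every group, which does not show which cells the reads of the members came from. The summed level of these markers was 6945 to 8536 normalized reads in KO MET/CAT, 4871 to 9148 in WT MET/CAT, 2726 to 6772 in KO GFP and 7401 to 10700.0 in WT GFP livers. Vascular smooth muscle shares Acta2, Tagln and Des with stellate cells. Its 8 listed markers summed to 681.5 to 964.6 normalized reads in KO MET/CAT, 743.6 to 1015 in WT MET/CAT, 727.2 to 1362 in KO GFP and 572.3 to 1026 in WT GFP livers. Of these 8, 5 reached the minimum for testing, and Cnn1 had no read in 3 of the 4 groups. The part of smooth muscle in the levels of the shared genes was not tested.

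Among the 38 members, 2 passed the test: Timp1 and Mmp14 were called higher in MET/CAT over GFP livers of the KO genotype, and also when both genotypes were averaged. A member that was not called is not thereby shown to be unchanged. The test was limma on log2(value + 1), with p-values adjusted by Benjamini-Hochberg over all 13871 genes and a call at an adjusted p under 0.05. In MET/CAT over GFP within KO livers, 2 of 38 members were called, against 1.25% of all genes tested. Averaged over genotypes, 2 of 38 members were called, against 3.8% of all genes. Within WT livers the same comparison called 0 of 38 members, against 0.339% of all genes. KO over WT called 0 of 38 members in GFP livers and 0 in MET/CAT livers, against 0.00721% of all genes in each, and 0 when averaged over plasmids, against 0.0144%. That share was 1 gene in GFP and in MET/CAT livers, the targeted Sirt2 itself (limma adjusted p = 0.00189 and 0.003945). Averaged over plasmids it was 2 genes, of which Sirt2 was 1. The interaction of genotype and plasmid called 0 members and 0% of all genes. Where 0 members were called by limma, 14 had an unadjusted p under 0.05 for KO over WT in GFP livers, against 15.5% of all genes, 4 in MET/CAT livers, against 7.76%, and 4 averaged over plasmids, against 8.11%. The numbers were 11 for MET/CAT over GFP in WT livers, against 14.8%, and 12 for the interaction, against 15.5%. The edgeR quasi-likelihood test on the recovered reads also called 0 members in each of these 5 comparisons, and DESeq2 called 4 in MET/CAT over GFP within WT livers, 1 in the interaction and 0 in the other 3.

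**Figure D1:**
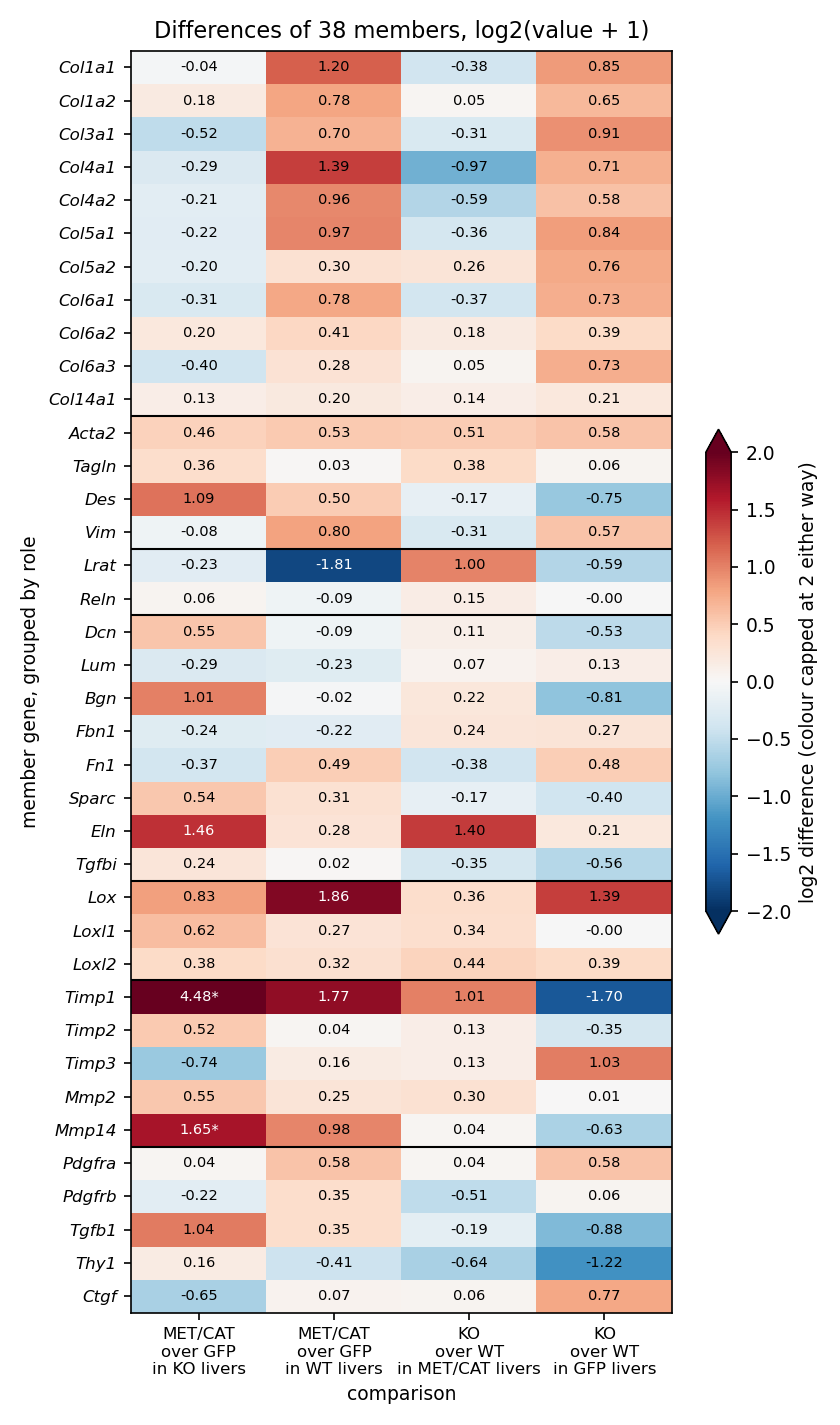
Log2 differences of the 38 members (rows, grouped by role from collagens at the top to signalling and surface genes at the bottom) in 4 comparisons (columns), with an asterisk where limma's adjusted p was under 0.05. The asterisks stand at Timp1 (4.48) and Mmp14 (1.65) for MET/CAT over GFP in KO livers, and the 11 collagens in the top block are all above 0 for KO over WT in GFP livers and for MET/CAT over GFP in WT livers.

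Timp1, which inhibits matrix metalloproteinases and is a classical transcript of activated stellate cells, had the widest fold range of the members with reads in every library, from 2.71 to 169 normalized reads. It had 169, 79.5 and 108 normalized reads in KO MET/CAT livers, 41.9, 116 and 35.6 in WT MET/CAT livers, 5.27, 4.80 and 2.71 in KO GFP livers and 14.0, 26.1 and 10.4 in WT GFP livers. Every MET/CAT library lay above every GFP library, and the 3 KO GFP libraries were the lowest of all. The recovered reads numbered 318 in KO MET/CAT, 184 in WT MET/CAT, 15 in KO GFP and 49 in WT GFP livers, so the GFP levels rest on few reads. Timp1 rose by 4.48 on the log2 scale in MET/CAT over GFP within KO livers (SE 0.53, limma adjusted p = 0.00406), and by 4.24 without KO GFP replicate 3 (adjusted p = 0.0134). The ratio of the pooled reads, adjusted for depth, was 27.0 with an exact 95% counting interval of 16.1 to 48.8, which covers counting error only. Within WT livers the difference was 1.77 (SE 0.53, limma adjusted p = 0.142), with a read ratio of 4.004 and an interval of 2.91 to 5.61. Averaged over genotypes it rose by 3.12 (SE 0.37, limma adjusted p = 0.00087). KO over WT was −1.70 in GFP livers (SE 0.53, limma adjusted p = 0.283) and 1.01 in MET/CAT livers (SE 0.53, limma adjusted p = 0.668). The difference between the genotypes' responses was 2.71 (SE 0.74) and did not pass the test (limma adjusted p = 0.265).

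Mmp14, a membrane-anchored metalloproteinase that cleaves collagen and activates the precursor of MMP2, was among the more abundant members, at 507 normalized reads per kb of exon over the 12 libraries. It had 5737, 4505 and 2881 normalized reads in KO MET/CAT livers, 5439, 3944 and 3198 in WT MET/CAT livers, 1009, 1099.9 and 2176 in KO GFP livers and 1986, 2407 and 1885 in WT GFP livers. All 6 MET/CAT libraries lay above all 6 GFP libraries, and among the KO GFP libraries replicate 3 was the highest. Mmp14 rose by 1.65 in MET/CAT over GFP within KO livers (SE 0.31, limma adjusted p = 0.0242) and by 1.31 averaged over genotypes (SE 0.22, limma adjusted p = 0.00598). The call in KO livers ended without KO GFP replicate 1 (adjusted p = 0.0809), KO GFP replicate 2 (0.0702), KO MET/CAT replicate 1 (0.084) or KO MET/CAT replicate 2 (0.0836), and held without KO GFP replicate 3, at 2.00 (adjusted p = 0.0134). In WT livers the difference was 0.98 (SE 0.31, limma adjusted p = 0.171).

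**Figure D2:**
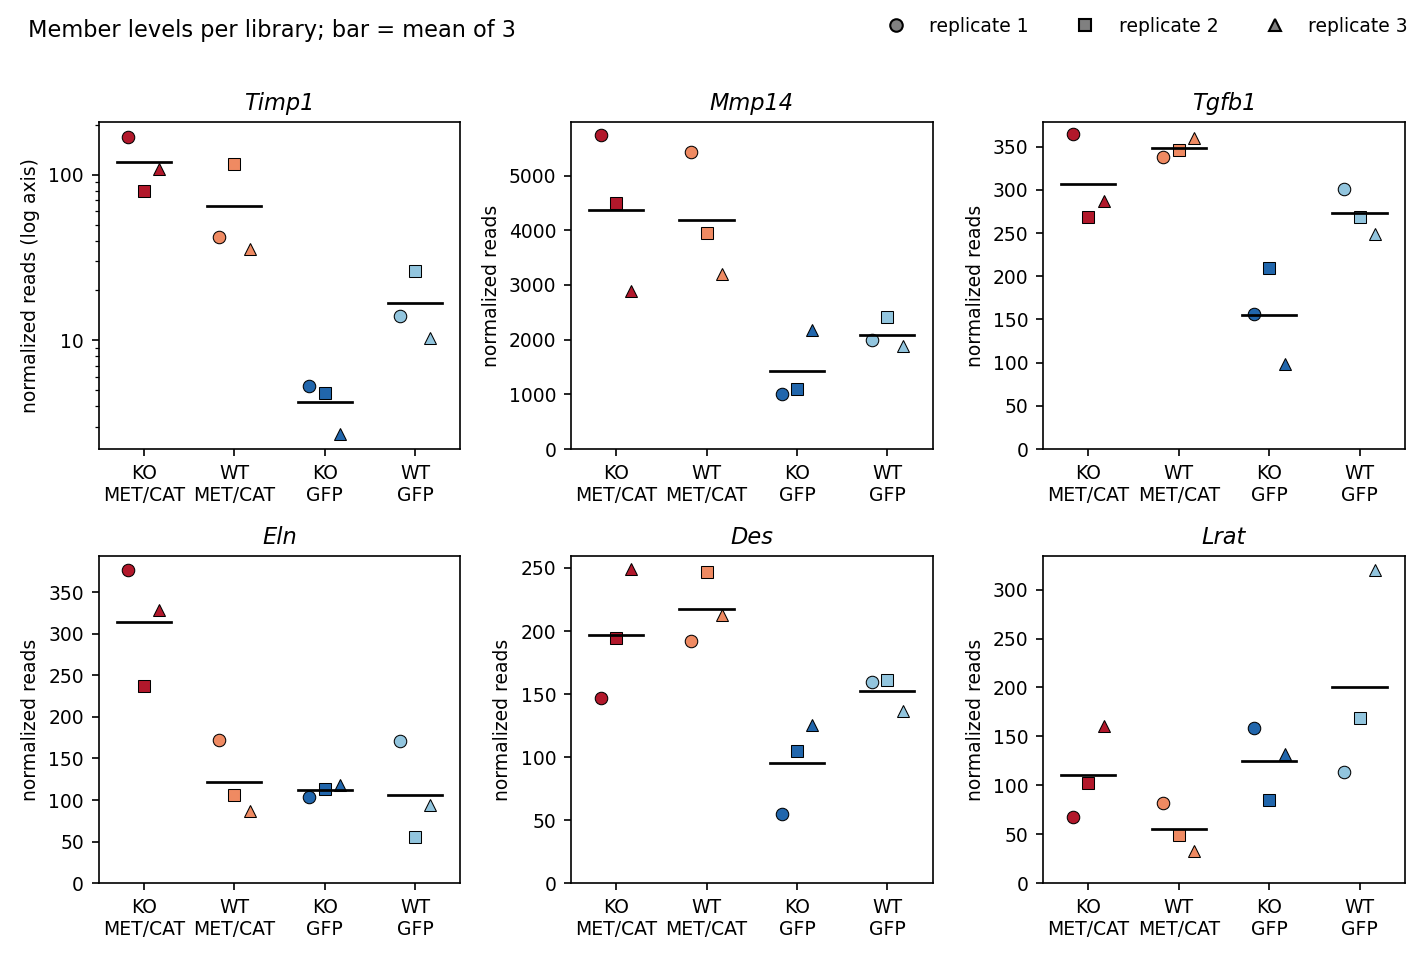
Normalized reads of 6 members in each library (points, with a shape per replicate), for KO MET/CAT, WT MET/CAT, KO GFP and WT GFP livers from left to right, with a bar at the mean of 3; the Timp1 axis is logarithmic and the others start at 0. All MET/CAT points of Timp1 and Mmp14 lie above all GFP points, and the KO MET/CAT points of Eln (237 to 377) lie above every other point of that gene.

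The promoters of Timp1 and Mmp14 are shown because these were the members called in MET/CAT over GFP. The windows hold the 250 bases before the transcription start in RefSeq (GRCm38.p6), at chrX:20869916-20870165 for Timp1 and chr14:54431348-54431597 for Mmp14, both on the plus strand and both read 5′ to 3′. Capitals mark matches, on either strand, to the GC box GGGCGG and the CCAAT box CCAAT.
Timp1: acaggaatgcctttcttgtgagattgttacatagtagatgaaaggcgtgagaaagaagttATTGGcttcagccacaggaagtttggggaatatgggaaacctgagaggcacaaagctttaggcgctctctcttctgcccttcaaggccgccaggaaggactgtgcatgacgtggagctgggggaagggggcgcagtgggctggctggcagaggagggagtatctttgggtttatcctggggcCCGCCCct
Mmp14: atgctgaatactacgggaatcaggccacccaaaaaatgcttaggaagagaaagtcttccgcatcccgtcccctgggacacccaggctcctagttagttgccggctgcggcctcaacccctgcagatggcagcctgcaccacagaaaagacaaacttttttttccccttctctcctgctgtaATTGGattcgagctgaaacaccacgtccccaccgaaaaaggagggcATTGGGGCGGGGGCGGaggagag
Timp1 held a GC box 8 to 3 bases before its start and a CCAAT box 190 to 186 bases before it. Mmp14 held GC boxes 19 to 14 and 13 to 8 bases before its start, and CCAAT boxes 69 to 65 and 23 to 19 bases before it, the last sharing a base with a GC box. Windows were available for 23 of the 38 members, of which 15 held the GC box and 8 the CCAAT box, against 32.7% and 33.8% of all 32851 windows of this length. The AP-1 motif TGANTCA was found in 1 member window (Col6a1) and in 6.75% of all windows, and the STAT motif TTCNNNGAA in 0 member windows and 7.02% of all. The TATA box TATAAA was found for Col3a1 and Vim, and in 12.4% of all windows. The CArG box, which binds serum response factor, was found in 0 member windows and 1.47% of all. These matches describe the letters only.

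The other inhibitors and proteases among the members, Timp2, Timp3 and Mmp2, did not pass the test in any comparison. Timp2 averaged 365 ± 83.9, 333 ± 74.2, 258 ± 78.8 and 319 ± 20.4 normalized reads (SD, n = 3) in KO MET/CAT, WT MET/CAT, KO GFP and WT GFP livers. Timp3, a TIMP that binds to the matrix, averaged 35.4 ± 6.16, 33.8 ± 14.5, 71.1 ± 48.7 and 28.6 ± 4.49 in the same order of groups, and its highest library was KO GFP replicate 3 at 122. Mmp2, a gelatinase, averaged 217 ± 69.7 in KO MET/CAT livers, all 3 libraries above the 146 ± 25.2 of KO GFP livers, and 175 ± 50.4 in WT MET/CAT against 148 ± 47.2 in WT GFP livers. Of the 25 further proteases and inhibitors listed, 18 were measured and 1 was called, Mmp9, a gelatinase also made by neutrophils. Mmp9 rose by 4.44 in MET/CAT over GFP within KO livers (SE 0.88, limma adjusted p = 0.0296), where 1.25% of all genes were called. It had 202, 17.8 and 44.6 normalized reads in KO MET/CAT livers, against 0.753, 8.65 and 0 in KO GFP livers. Averaged over genotypes Mmp9 rose by 2.60 (SE 0.62, limma adjusted p = 0.0338), where 3.8% of all genes were called. Both calls ended without KO GFP replicate 3 (3.76, adjusted p = 0.0994 in KO livers, and 2.26, adjusted p = 0.0571 averaged). The one in KO livers also ended without WT GFP replicate 1, KO GFP replicate 1 or KO MET/CAT replicate 1 or 3 (adjusted p = 0.0522 to 0.0939). The averaged call ended with any of 9 of the 12 libraries left out (adjusted p = 0.056 to 0.0872).

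Of the markers tested, 3 of 6 for neutrophils and 1 of 11 for macrophages were called in MET/CAT over GFP within KO livers, where 1.25% of all genes were. Averaged over genotypes the numbers were 6 of 6 and 1 of 11, against 3.8% of all genes, and in WT livers 1 of 6 and 0 of 11, against 0.339%. The summed level of the 7 listed neutrophil markers was 3060, 409 and 594 normalized reads in KO MET/CAT livers, 312, 1059 and 697 in WT MET/CAT livers, 63.2, 81.7 and 57.0 in KO GFP livers and 86.8, 175 and 77.1 in WT GFP livers. Cxcr2 and Ly6g had no read in KO GFP livers. The neutrophil markers of smallest p averaged over genotypes were S100a8 (2.99, SE 0.44, limma adjusted p = 0.00246), Mmp8 (4.15, SE 0.63, limma adjusted p = 0.00311), S100a9 (3.24, SE 0.49, limma adjusted p = 0.00319) and Cxcr2 (4.06, SE 0.68, limma adjusted p = 0.00568). Marco, a scavenger receptor of macrophages, was the called gene among 11 Kupffer cell and macrophage markers, at 3.51 in KO livers (SE 0.67, limma adjusted p = 0.0263) and 2.33 averaged (SE 0.48, limma adjusted p = 0.0164). In KO livers S100a8 and S100a9, which encode subunits of calprotectin, rose by 3.63 (SE 0.62, limma adjusted p = 0.014) and 3.97 (SE 0.70, limma adjusted p = 0.0179) and the chemokine receptor Cxcr2 by 4.41 (SE 0.95, limma adjusted p = 0.0417), and in WT livers the collagenase Mmp8 rose by 4.67 (SE 0.89, limma adjusted p = 0.045). Without KO GFP replicate 3 all 6 neutrophil markers were still called averaged over genotypes, but none of the 4 genes called in KO livers was, with adjusted p-values of 0.0524 for S100a8, 0.0698 for S100a9, 0.104 for Cxcr2 and 0.0501 for Marco (2.58). Marco in KO livers also lost its call with any of the KO MET/CAT libraries left out (adjusted p = 0.0604 to 0.0712), S100a9 without KO GFP replicate 1 (0.0611) and Cxcr2 with any KO GFP library or KO MET/CAT replicate 1 or 3 left out (0.0741 to 0.133) and any WT GFP library or WT MET/CAT replicate 2 or 3 left out (0.0501 to 0.0562). The Mmp8 call in WT livers ended with any of the WT GFP libraries or WT MET/CAT replicate 2 or 3 left out (adjusted p = 0.0799 to 0.173), and without KO GFP replicate 1 or KO MET/CAT replicate 2 (0.0542 and 0.0555). The part of these cells in the Timp1 and Mmp14 levels was not tested.

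The collagen members were lowest in WT GFP livers. For all 11 collagen members the WT GFP mean was the lowest of the 4 group means, and in 10 of 11 the single lowest library was a WT GFP library. None of the 11 passed the test in any comparison. The summed level of the 11 genes was 7755, 5709 and 7273 normalized reads in KO MET/CAT livers, 7590, 9700 and 8399 in WT MET/CAT livers, 7302, 6472 and 9788 in KO GFP livers and 6212, 4797 and 3986 in WT GFP livers. KO MET/CAT replicate 2 lay below WT GFP replicate 1, and the other 8 libraries of the first 3 groups lay above all WT GFP libraries.

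**Figure D3:**
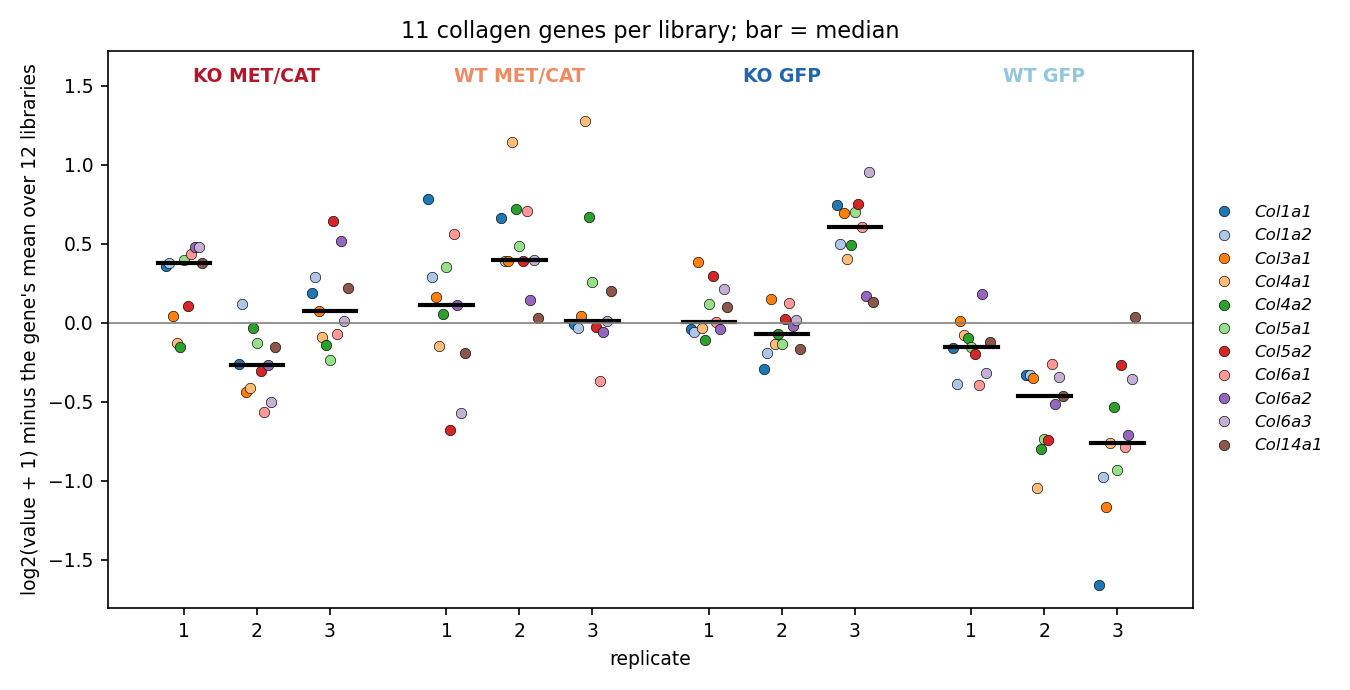
Deviation of each of 11 collagen genes from its own mean over the 12 libraries on the log2(value + 1) scale (points, coloured by gene), with a bar at the median of the 11 genes, for the 3 replicates of KO MET/CAT, WT MET/CAT, KO GFP and WT GFP livers. The medians of WT GFP replicates 2 and 3 are the lowest (−0.47 and −0.76) and that of KO GFP replicate 3 is the highest (0.61).

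Col1a1, a chain of type I collagen, the main fibrillar collagen of scar, had 909, 591 and 807 normalized reads in KO MET/CAT livers, 1219, 1121 and 705 in WT MET/CAT livers, 688, 577 and 1184 in KO GFP livers and 632, 562 and 223 in WT GFP livers. All WT MET/CAT libraries lay above all WT GFP libraries, whereas KO MET/CAT and KO GFP libraries overlapped. The MET/CAT over GFP difference was −0.04 in KO livers (limma adjusted p = 0.968) and 1.20 in WT livers (limma adjusted p = 0.165). Its partner chain Col1a2 averaged 1050.4 ± 94.6 in KO MET/CAT, 1022 ± 153 in WT MET/CAT, 945 ± 251 in KO GFP and 601 ± 137 in WT GFP livers, and every library of the first 3 groups lay above every WT GFP library. Its MET/CAT over GFP difference in WT livers was 0.78 (SE 0.23, limma adjusted p = 0.139), and its KO over WT difference averaged over plasmids was 0.35 (SE 0.16, limma adjusted p = 0.615).

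Col3a1, the chain of type III collagen, had 1856, 1331 and 1895 normalized reads in KO MET/CAT livers, 2014, 2365 and 1856 in WT MET/CAT livers, 2348, 1996 and 2917 in KO GFP livers and 1818, 1413 and 804 in WT GFP livers. The KO MET/CAT libraries all lay below the KO GFP libraries, and the WT MET/CAT libraries all lay above the WT GFP libraries. The differences were −0.52 in KO livers (SE 0.27, limma adjusted p = 0.298) and 0.70 in WT livers (SE 0.27, limma adjusted p = 0.253). KO over WT in GFP livers was 0.91 (SE 0.27, limma adjusted p = 0.273), with no overlap of libraries.

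Col5a1 and Col5a2, whose type V collagen starts the assembly of collagen fibrils, were also lowest in WT GFP livers. Col5a1 averaged 293 ± 72.2, 369 ± 28.8, 345 ± 107 and 192 ± 57.2 normalized reads in KO MET/CAT, WT MET/CAT, KO GFP and WT GFP livers. Col5a2 had 86.7, 64.9 and 126 in KO MET/CAT livers, 49.8, 105 and 78.9 in WT MET/CAT livers, 98.6, 81.6 and 136 in KO GFP livers and 69.8, 47.6 and 66.7 in WT GFP livers. Col5a1 was the fibrillar collagen with the smallest p for MET/CAT over GFP in WT livers (0.97, SE 0.27, limma adjusted p = 0.124), and its KO over WT difference in GFP livers was 0.84 (SE 0.27, limma adjusted p = 0.287). Type VI collagen forms beaded microfibrils around cells. Col6a1 averaged 225 ± 77.0, 293 ± 104, 273 ± 63.5 and 163 ± 29.5 in KO MET/CAT, WT MET/CAT, KO GFP and WT GFP livers. Col6a2 averaged 251 ± 69.3, 216 ± 16.1, 212 ± 17.4 and 168 ± 58.2, and Col6a3 151 ± 50.6, 145 ± 47.1, 199.5 ± 73.1 and 115 ± 1.64, in the same order. Col14a1, a collagen on the surface of fibrils, had means of 1172 ± 211, 1060.3 ± 143, 1066 ± 116 and 929.9 ± 159.6.

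The basement membrane chains Col4a1 and Col4a2 start head to head on chromosome 8. Col4a1 lies at 11198423 to 11312826 on the minus strand and Col4a2 at 11312805 to 11449287 on the plus strand (GRCm38). Their starts overlap, and the strand of counting is not known, so how reads in the short overlap were assigned is not known. Col4a1 averaged 709 ± 84.0 normalized reads in KO MET/CAT, 1508 ± 672 in WT MET/CAT, 874 ± 183 in KO GFP and 551 ± 199 in WT GFP livers. WT MET/CAT replicates 2 and 3, at 1808 and 1978, were far above replicate 1 at 739, which lay among the other groups. Col4a2 averaged 505 ± 22.9, 777 ± 184, 596 ± 146 and 399 ± 99.9 in the same order, and its WT MET/CAT libraries lay above all WT GFP and all KO MET/CAT libraries. In MET/CAT over GFP within WT livers, Col4a1 differed by 1.39 (SE 0.34, limma adjusted p = 0.0894) and Col4a2 by 0.96 (SE 0.24, limma adjusted p = 0.0991). Without WT MET/CAT replicate 1, the fit called 3 members, Col4a1, Col4a2 and Lrat, and with all libraries it called 0. In MET/CAT livers KO over WT was −0.97 for Col4a1 (SE 0.34, limma adjusted p = 0.536) and −0.59 for Col4a2 (SE 0.24, limma adjusted p = 0.605).

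Over the 11 collagens, the median difference was 0.73 for KO over WT in GFP livers, where 11 of 11 were above 0, and the median of all genes was −0.07. Without KO GFP replicate 3 the median was 0.54, again with 11 of 11 above 0. Equal library totals, quantile normalization, edgeR and DESeq2 gave 11 of 11 above 0 as well, and library quality weights gave 10 of 11. With each library's trend with exonic length removed, 26 of all 38 members were above 0 in this comparison, at a median of 0.28. The count for the 11 collagens alone in that setting is not given here. For MET/CAT over GFP in WT livers the collagen median was 0.78 with 11 of 11 above 0, against −0.01 for all genes. With the length trend removed, 31 of all 38 members were above 0 there, at a median of 0.28. In KO livers the collagen median was −0.21 with 3 above and 8 below 0, against 0.05 for all genes. Without KO GFP replicate 3 it was −0.01, with 5 above and 6 below 0, and with equal library totals 0 were above 0. Under equal totals the median of all genes was 0.11 for KO over WT in GFP livers and −0.17 for MET/CAT over GFP in KO livers. The comparisons KO over WT in GFP livers and MET/CAT over GFP in WT livers share the WT GFP libraries, the low group for the collagens. The interaction was below 0 for 11 of 11 collagens, with a median of −1.09 against 0.04 for all genes. It was below 0 for 9 of 11 after removal of each library's trend with exonic length and for 10 of 11 with library quality weights.

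KO GFP replicate 3 held the highest value of 11 members and the lowest of 6, while it held the highest value of 18.5% and the lowest of 24.5% of all genes. Across the 38 members, Spearman's rho between a member's deviation from its mean and its exonic length was 0.65 in this library, and −0.44 to 0.20 in the other 11. Across all 13840 genes with a length rho was 0.44 in this library, and −0.33 to 0.17 in the others. In WT GFP replicates 1, 2 and 3 it was −0.21, −0.33 and 0.01 over all genes, and −0.18, −0.44 and −0.005 over the members. WT MET/CAT replicate 1 and KO MET/CAT replicate 2 stood at −0.21 and −0.24 over all genes. These are correlations across genes, which are not independent replicates. The median exonic length was 5658 bases over the members and 4259.5 bases over all genes tested.

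**Figure D4:**
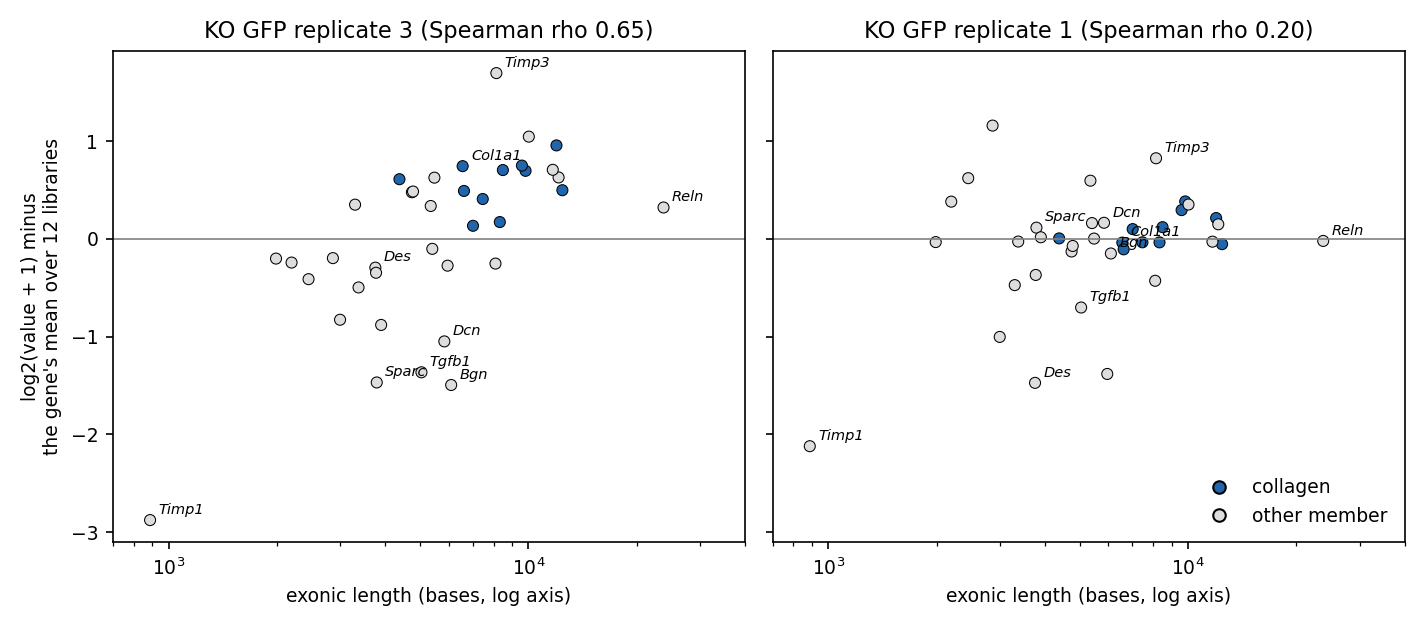
Deviation of each of the 38 members from its own mean over 12 libraries (log2(value + 1), vertical axis) against its exonic length in bases (logarithmic horizontal axis), in KO GFP replicate 3 (left) and KO GFP replicate 1 (right), with collagens in blue and other members in grey. In replicate 3 all 11 collagens lie above 0 and Timp1, Bgn, Sparc, Tgfb1 and Dcn lie lowest, at −2.88 to −1.05 (rho 0.65), and in replicate 1 the collagens lie near 0 (rho 0.20).

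The contractile and cytoskeletal genes of activated stellate cells did not pass the test. Acta2, which encodes alpha-smooth muscle actin, had 39.7, 72.2 and 69.0 normalized reads in KO MET/CAT livers, 51.8, 26.4 and 48.9 in WT MET/CAT livers, 53.5, 40.3 and 34.4 in KO GFP livers and 39.9, 21.5 and 25.1 in WT GFP livers. All 4 groups overlapped in part, and the MET/CAT over GFP difference was 0.46 in KO livers (limma adjusted p = 0.535) and 0.53 in WT livers (limma adjusted p = 0.572). Tagln, which encodes the actin-binding protein transgelin, had 195, 246 and 313 in KO MET/CAT livers, 186, 222 and 162 in WT MET/CAT livers, 197, 207 and 175 in KO GFP livers and 203, 175 and 179 in WT GFP livers. The highest 2 libraries were KO MET/CAT replicates 2 and 3, and replicate 1 lay among the other groups (KO over WT in MET/CAT livers 0.38, limma adjusted p = 0.689).

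Des, which encodes the intermediate filament desmin of stellate and muscle cells, had 147, 195 and 249 normalized reads in KO MET/CAT livers, 192, 247 and 212 in WT MET/CAT livers, 55.0, 105 and 126 in KO GFP livers and 159.6, 161 and 137 in WT GFP livers. The 3 KO GFP libraries were the lowest of the 12, and the MET/CAT libraries of each genotype lay above its GFP libraries. The MET/CAT over GFP difference was 1.09 in KO livers (SE 0.31, limma adjusted p = 0.0957), 0.50 in WT livers and 0.80 averaged over genotypes (SE 0.22, limma adjusted p = 0.0596). Without KO GFP replicate 3 the averaged difference passed the test (0.92, limma adjusted p = 0.0309). Vim, which encodes vimentin, averaged 616 ± 143, 758 ± 158, 649 ± 153 and 436 ± 96.7 in KO MET/CAT, WT MET/CAT, KO GFP and WT GFP livers, with all WT MET/CAT libraries above all WT GFP libraries.

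Lrat, the enzyme that esterifies retinol for storage and marks quiescent stellate cells, had 67.4, 103 and 160.3 normalized reads in KO MET/CAT livers, 81.7, 49.6 and 33.4 in WT MET/CAT livers, 158, 85.5 and 132 in KO GFP livers and 114, 169 and 319.6 in WT GFP livers. All WT MET/CAT libraries lay below all WT GFP libraries, and WT GFP replicate 3 was far above the rest. The difference was −1.81 in WT livers (SE 0.45, limma adjusted p = 0.0876) and −0.23 in KO livers (limma adjusted p = 0.811), and KO over WT in MET/CAT livers was 0.997 (SE 0.45, limma adjusted p = 0.613). Reln, a secreted glycoprotein made in liver by stellate cells, had the smallest ratio of its highest to its lowest library among the members, 1.51, from 519 to 784 normalized reads, with means of 659 ± 32.0 in KO MET/CAT, 593 ± 45.1 in WT MET/CAT, 640.2 ± 134 in KO GFP and 635 ± 82.5 in WT GFP livers.

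The 16 quiescent stellate markers did not pass the test. In KO over WT GFP livers 15 of 16 were below 0 with a median of −0.64, while 13 of 16 were above 0 for MET/CAT over GFP in KO livers with a median of 0.59. Without KO GFP replicate 3 these were 14 of 16 below 0 with a median of −0.44, and 14 of 16 above 0 with a median of 0.51. Of all genes, with all libraries, 44.87% were above 0 in the former comparison and 53.19% in the latter. For MET/CAT over GFP in WT livers 6 of the 16 markers were above and 10 below 0. For KO over WT in MET/CAT livers 10 were above and 6 below 0. Gfap, an intermediate filament of quiescent stellate cells and of astrocytes, had the smallest p for KO over WT in GFP livers, with 49.5 ± 26.7 normalized reads in KO GFP against 135 ± 6.03 in WT GFP livers (SD, n = 3, difference −1.63, SE 0.43, limma adjusted p = 0.272). Differences of markers of other sinusoidal cells had the same signs, with only Marco past the test: 9 of 11 sinusoidal endothelial markers and 11 of 11 Kupffer cell and macrophage markers were below 0 in KO over WT GFP livers, and 11 of 11 of each were above 0 for MET/CAT over GFP in KO livers, counts that were the same without KO GFP replicate 3. The macrophage median in these comparisons was −1.45 and 1.19, and −0.83 and 0.64 without that library. The smallest p of the endothelial markers for KO over WT in GFP livers was that of Eng, a co-receptor for transforming growth factor beta (−0.79, SE 0.24, limma adjusted p = 0.278), and for the macrophage markers that of Clec4f, a Kupffer cell lectin (−1.86, SE 0.38, limma adjusted p = 0.162). The summed macrophage markers were 5154, 5515 and 1681 normalized reads in KO GFP against 8724, 11710.0 and 11440.0 in WT GFP livers. Hepatocyte, mesothelial and vascular smooth muscle markers called 0 genes in any comparison, with the smallest p at Hnf4a for hepatocytes (0.77 for MET/CAT over GFP in WT livers, SE 0.22, limma adjusted p = 0.129), Wt1 for mesothelium (1.54 for KO over WT averaged over plasmids, SE 0.59, limma adjusted p = 0.568) and Mylk for smooth muscle (−1.02 for the interaction, SE 0.47, limma adjusted p = 0.316). Of the 6 measured cholangiocyte markers, 1 was called, the transcription factor Sox9. It rose by 2.11 in MET/CAT over GFP averaged over genotypes (SE 0.43, limma adjusted p = 0.0153), where 3.8% of all genes were called. The part of these other cells in the stellate values was not tested.

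**Figure D5:**
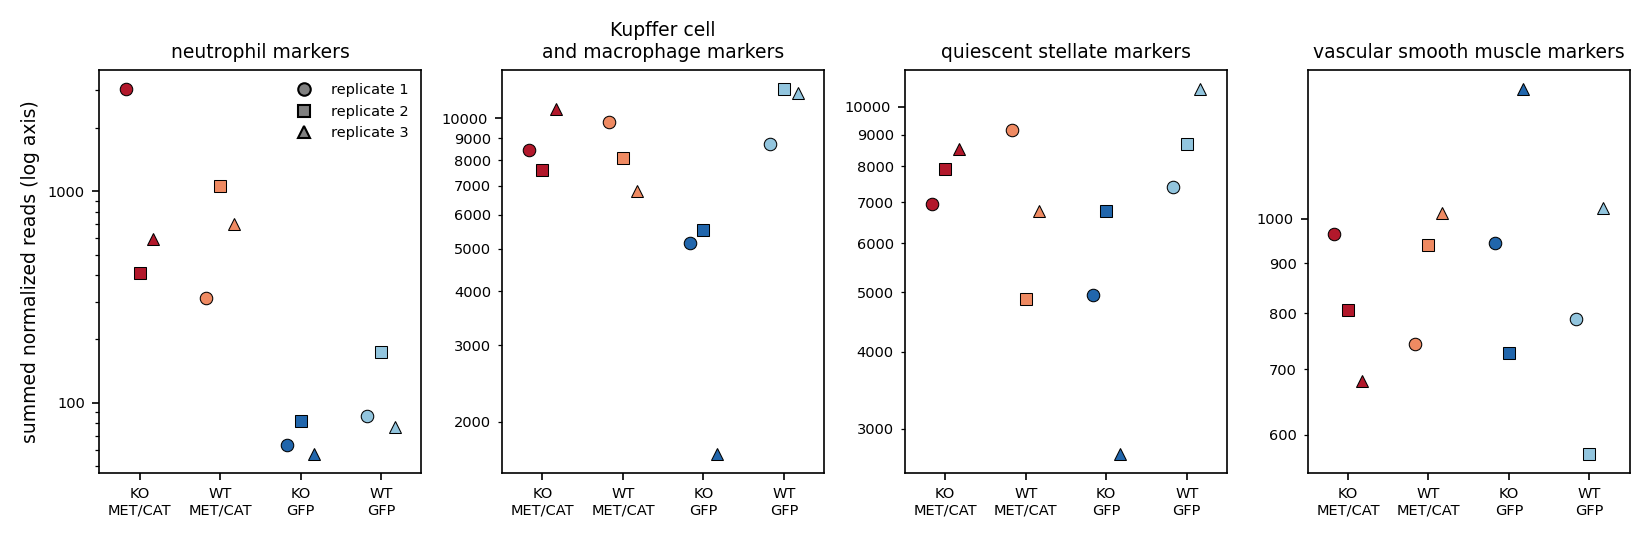
Summed normalized reads of 4 marker lists in each library (logarithmic axis, a shape per replicate), for KO MET/CAT, WT MET/CAT, KO GFP and WT GFP livers from left to right. Neutrophil sums lie at 312 to 3060 in MET/CAT livers and at 57.0 to 175 in GFP livers, and KO GFP replicate 3 has the lowest macrophage and quiescent stellate sums and the highest smooth muscle sum. That smooth muscle sum is 1362, of which Mylk is 1169, Rgs5 85.0, Notch3 74.1, Myh11 28.9 and Synpo2 2.71, so it mostly follows Mylk.

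The proteoglycans and glycoproteins held the most abundant members. Fn1, fibronectin, which hepatocytes also secrete into plasma, was the highest at 1468 normalized reads per kb of exon, followed by Sparc at 771 per kb, a collagen-binding protein. Fn1 averaged 15077 ± 3024, 19804 ± 4941, 19872 ± 6269 and 13881 ± 2121 normalized reads in KO MET/CAT, WT MET/CAT, KO GFP and WT GFP livers. Sparc averaged 3061 ± 279, 3451 ± 391, 2354 ± 1166 and 2809.6 ± 572 in the same order, and its KO GFP replicate 3 stood at 1008 against 3023 and 3031 in the other two.

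Eln, elastin of elastic fibres, had 377, 237 and 329 normalized reads in KO MET/CAT livers, 172, 106 and 86.7 in WT MET/CAT livers, 104, 113 and 118 in KO GFP livers and 171, 55.5 and 93.5 in WT GFP livers. All 3 KO MET/CAT libraries lay above the other 9 libraries. The MET/CAT over GFP difference in KO livers was 1.46 (SE 0.37, limma adjusted p = 0.0728), and KO over WT in MET/CAT livers was 1.395 (SE 0.37, limma adjusted p = 0.495), the smallest p of the members in that comparison. Averaged over genotypes MET/CAT over GFP was 0.87 (SE 0.26, limma adjusted p = 0.0879), and averaged over plasmids KO over WT was 0.80 (SE 0.26, limma adjusted p = 0.548). None of these passed the test. The first passed in a fit of the 6 KO libraries alone (adjusted p = 0.0447) and with the length trend removed (0.0422). It also passed with DESeq2, library quality weights and a replicate block. It stayed uncalled in 7 of 12 other settings and in all 12 fits with 1 library left out. The difference averaged over genotypes passed with DESeq2 and without WT GFP replicate 1.

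Bgn, biglycan, a small leucine-rich proteoglycan, averaged 1821 ± 154 in KO MET/CAT, 1566 ± 190.2 in WT MET/CAT, 973 ± 413 in KO GFP and 1589 ± 229 in WT GFP livers, and its KO GFP libraries were the 3 lowest (MET/CAT over GFP in KO livers 1.01, SE 0.28, limma adjusted p = 0.0944, and 0.59 with an adjusted p of 0.183 without KO GFP replicate 3). Dcn, decorin, of the same family, had 1297, 1047 and 1434 normalized reads in KO MET/CAT livers, 1049, 1152 and 1274 in WT MET/CAT livers, 1241, 929.8 and 534 in KO GFP livers and 970.3, 1076 and 1764 in WT GFP livers. The 4 groups overlapped, with KO GFP replicate 3 the lowest and WT GFP replicate 3 the highest library. Lum, lumican, averaged 135 ± 44.4, 125 ± 26.9, 166 ± 56.5 and 151 ± 55.4 in KO MET/CAT, WT MET/CAT, KO GFP and WT GFP livers, and Fbn1, the microfibril protein fibrillin, 53.8 ± 11.5, 45.9 ± 12.4, 64.3 ± 15.9 and 53.0 ± 11.1 in the same order. Tgfbi, a matrix adaptor protein induced by transforming growth factor beta, averaged 614 ± 166, 763 ± 74.7, 506 ± 8.23 and 768 ± 217. Its KO GFP libraries, at 498 to 515, all lay below the WT GFP libraries, at 580.2 to 1006 (averaged KO over WT −0.45, SE 0.17, limma adjusted p = 0.567).

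The 3 lysyl oxidases among the members, enzymes that crosslink collagen and elastin, did not pass the test. Lox, the lowest member per length at 2.50 normalized reads per kb, had 15.7, 10.5 and 27.6 normalized reads in KO MET/CAT livers, 13.0, 7.38 and 21.1 in WT MET/CAT livers, 8.28, 6.72 and 12.7 in KO GFP livers and 18.9, 0 and 1.73 in WT GFP livers. These rest on 49, 39, 32 and 21 reads in the 4 groups, and WT GFP replicate 1 lay above 4 of the 6 MET/CAT libraries while WT GFP replicate 2 had no read. The MET/CAT to GFP read ratio was 1.95 in KO livers (95% interval 1.22 to 3.15) and 1.98 in WT livers (1.14 to 3.54), intervals that leave out the spread between libraries. Loxl1 averaged 97.8 ± 14.4, 84.3 ± 45.1, 65.6 ± 24.7 and 65.8 ± 21.9 in KO MET/CAT, WT MET/CAT, KO GFP and WT GFP livers. Loxl2 averaged 118 ± 27.3, 84.7 ± 5.64, 88.9 ± 8.36 and 69.1 ± 18.8 in the same order, and its KO MET/CAT libraries lay above the WT MET/CAT libraries.

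Another family member from the list of collagen synthesis and processing genes, Loxl4, was the 1 called gene among the 21 of 22 measured there. It averaged 41.7 ± 16.7 in KO MET/CAT, 89.95 ± 15.7 in WT MET/CAT, 12.4 ± 8.28 in KO GFP and 7.88 ± 4.44 in WT GFP livers. Loxl4 rose by 3.45 in MET/CAT over GFP within WT livers (SE 0.54, limma adjusted p = 0.0163) and by 2.61 averaged over genotypes (SE 0.38, limma adjusted p = 0.00246). Of all genes, 0.339% were called in the former comparison and 3.8% in the latter. The call in WT livers ended without WT GFP replicate 1 or 2 or WT MET/CAT replicate 3 (adjusted p = 0.075 to 0.0875).

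Among ligands, Tgfb1, the main fibrogenic cytokine of stellate cells, had 365, 269 and 288 normalized reads in KO MET/CAT livers, 338, 346 and 360.2 in WT MET/CAT livers, 157, 209 and 98.5 in KO GFP livers and 301, 269 and 249 in WT GFP livers. The 3 KO GFP libraries were the lowest of the 12, and the WT MET/CAT libraries lay above the WT GFP libraries. The MET/CAT over GFP difference was 1.04 in KO livers (SE 0.26, limma adjusted p = 0.0671), 0.35 in WT livers and 0.69 averaged (SE 0.18, limma adjusted p = 0.0507). The averaged difference passed with edgeR, DESeq2, a pseudocount of 5, a mean of at least 50 and library quality weights, and without KO GFP replicate 2. It stayed uncalled in 6 of 11 other settings and in 11 of 12 fits with 1 library left out. In KO livers it passed with DESeq2 and with library quality weights. KO over WT in GFP livers was −0.88 (SE 0.26, limma adjusted p = 0.272), the smallest p of the members there, and averaged over plasmids it was −0.53 (SE 0.18, limma adjusted p = 0.548). Without KO GFP replicate 3, KO over WT in GFP livers was −0.59 and MET/CAT over GFP in KO livers was 0.75. Tgfb1 is transcribed in macrophages too, whose markers were lowest in the same 3 libraries, and their part in its level was not tested. Ctgf, a matricellular target of transforming growth factor beta now named Ccn2, averaged 63.0 ± 41.8, 73.5 ± 80.3, 86.2 ± 38.2 and 48.4 ± 16.0 in KO MET/CAT, WT MET/CAT, KO GFP and WT GFP livers and spread from 19.0 to 166 within WT MET/CAT livers.

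Of the 28 listed genes of the transforming growth factor beta pathway, 26 were measured. Of these, 1 was called, in MET/CAT over GFP within KO livers, where 1.25% of all genes were called. Tgfbr2, the ligand-binding receptor, averaged 196 ± 75.3 in KO MET/CAT against 525 ± 98.8 in KO GFP livers (SD, n = 3) and fell by 1.48 (SE 0.30, limma adjusted p = 0.0331). The call ended with any of the 3 KO GFP libraries, KO MET/CAT replicate 1 or 2 or WT GFP replicate 1 left out (adjusted p = 0.058 to 0.112). In WT livers it averaged 282 ± 53.0 with MET/CAT and 269.9 ± 64.9 with GFP, a difference of 0.08 (limma adjusted p = 0.927). Smurf2, a ubiquitin ligase of the pathway, had the smallest p for KO over WT in GFP livers (0.76, SE 0.21, limma adjusted p = 0.272). Pmepa1, a pathway target that dampens the signal, had it for KO over WT in MET/CAT livers (1.35, SE 0.34, limma adjusted p = 0.495) and for MET/CAT over GFP in WT livers (−1.33, SE 0.34, limma adjusted p = 0.0971).

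Among receptors, Pdgfrb, the platelet-derived growth factor receptor that drives stellate cell proliferation, had 119, 135 and 169.8 normalized reads in KO MET/CAT livers, 191, 188 and 219 in WT MET/CAT livers, 163, 105 and 252 in KO GFP livers and 134, 164 and 174 in WT GFP livers. The KO MET/CAT libraries all lay below the WT MET/CAT libraries (KO over WT −0.51, SE 0.30, limma adjusted p = 0.682), and the KO GFP libraries spread across the whole range. Pdgfra averaged 62.3 ± 8.03, 61.9 ± 18.9, 70.3 ± 43.5 and 41.5 ± 14.4 in KO MET/CAT, WT MET/CAT, KO GFP and WT GFP livers. Of the 10 measured platelet-derived growth factor ligands and other mitogens, 0 were called, and Pdgfc had the smallest p for MET/CAT over GFP in KO livers (1.52, SE 0.51, limma adjusted p = 0.135). Thy1, a surface glycoprotein of portal fibroblasts and lymphocytes, had 69.8, 25.1 and 42.5 normalized reads in KO MET/CAT livers, 90.7, 54.8 and 58.9 in WT MET/CAT livers, 27.1, 63.4 and 30.7 in KO GFP livers and 79.8, 108 and 81.4 in WT GFP livers. Its KO over WT difference was −1.22 in GFP livers (SE 0.42, limma adjusted p = 0.287), without overlap, and −0.93 averaged over plasmids (SE 0.30, limma adjusted p = 0.548).

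Of 13 measured receptors for matrix proteins, 1 was called in MET/CAT over GFP within KO livers, against 1.25% of all genes, and 3 averaged over genotypes, against 3.8%. Itga5, the alpha chain of a fibronectin receptor, rose by 1.16 in MET/CAT over GFP within KO livers (SE 0.25, limma adjusted p = 0.0386), with 847, 863 and 509.5 normalized reads in KO MET/CAT livers against 364, 269 and 335 in KO GFP livers. Averaged over genotypes Itga5 rose by 0.91, Cd44, the hyaluronan receptor, by 1.06 (SE 0.26, limma adjusted p = 0.0374) and Sdc4, a syndecan, by 0.79 (SE 0.15, limma adjusted p = 0.0109). The Itga5 call in KO livers ended with any of the 3 KO GFP libraries, KO MET/CAT replicate 1 or 2 or WT GFP replicate 1 left out (adjusted p = 0.0662 to 0.14). The Cd44 call ended with any of 10 of the 12 libraries left out (adjusted p = 0.0587 to 0.0953). Of 20 basement membrane genes and of 8 measured further collagens, 0 were called in any comparison. Col18a1 had the smallest p of the basement membrane genes in WT livers, at 25423 to 28678 normalized reads with MET/CAT against 17858 to 19915 with GFP (0.50, SE 0.20, limma adjusted p = 0.258). Lama3, a laminin chain, had it for KO over WT in GFP livers (3.20, SE 0.90, limma adjusted p = 0.272), Col4a6 in MET/CAT livers (2.46, SE 0.95, limma adjusted p = 0.591) and Col4a4 for MET/CAT over GFP in KO livers (−2.32, SE 0.71, limma adjusted p = 0.115). Among the further collagens the smallest p belonged to Col5a3 for MET/CAT over GFP averaged over genotypes (0.63, SE 0.23, limma adjusted p = 0.157). Unlike the 11 members, these 8 were 4 above and 4 below 0 for KO over WT in GFP livers (median 0.0745). For MET/CAT over GFP in WT livers they were 6 above and 2 below 0 (median 0.305).

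Libraries without overlap between the groups compared were counted for all members. For KO over WT in GFP livers, 7 of 38 members lay wholly higher, against 9.15% of all genes, and 6 wholly lower, against 13%. The 7 were 6 collagens and Fn1, and the 6 were Tgfb1, Timp1, Thy1, Bgn, Des and Tgfbi. In MET/CAT livers 3 members lay wholly higher in KO (Eln, Loxl2 and Reln), against 6.82% of all genes, and 2 wholly lower (Col4a2 and Pdgfrb), against 7.01%. MET/CAT over GFP in WT livers had 11 members wholly higher, against 10.5% of all genes, and 1 (Lrat) wholly lower, against 10.3%. In KO livers 7 members lay wholly higher (Timp1, Mmp14, Tgfb1, Eln, Bgn, Des and Mmp2), against 14.4% of all genes, and 1 (Col3a1) wholly lower, against 10.7%.

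The median difference of the 38 members was 0.24 for KO over WT in GFP livers (all genes −0.07), 0.06 in MET/CAT livers (all genes −0.00), 0.32 for MET/CAT over GFP in WT livers (all genes −0.01) and 0.14 in KO livers (all genes 0.05). Members above 0 numbered 25, 24, 31 and 22 of 38 in these 4 comparisons, against 44.87%, 49.74%, 48.65% and 53.19% of all genes. The 12 members with an unadjusted p under 0.05 for the interaction were 4 above and 8 below 0, and 15.5% of all genes reached that p. The smallest p among them belonged to Timp1 and then to Col4a1 (−1.67, SE 0.48), Col4a2 (−1.17, SE 0.35), Col3a1 (−1.21, SE 0.38) and Col5a1 (−1.19, SE 0.39), each with a limma adjusted p of 0.265.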

How the data were processed

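Total RNA of whole mouse liver was sequenced in 12 libraries. The authors deposited 1 table of normalized reads per gene (a signal: counts divided by a factor of each library). Alignment with HISAT2 2.0.4 to GRCm38 and counting with HTSeq 0.11.2 are named in the submitters' processing notes. The sources used here do not state the normalization tool, library kit or strand setting, so how reads of overlapping and antisense genes were assigned is not known. Whole reads were recovered from the value steps of each library (100% whole within 0.1 read, the largest departure being 0.00205 reads). In both WT groups a read of replicate 1 was worth 0.997, so near to 1 that whole multiples at low values do not by themselves show the recovery there.

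Genes with 10 or more normalized reads in 3 or more libraries were tested with limma 3.58.1 (with a mean-variance trend, R 4.3.3) on log2(value + 1), with 1 model of 4 group means over all 12 libraries and 7 contrasts. P-values were adjusted by Benjamini-Hochberg over all 13871 genes. Log2 differences of low genes are understated by the pseudocount. Alternatives were edgeR 4.0.16 and DESeq2 1.42.0 on the recovered reads, pseudocounts of 0.5 and 5, other filters and scalings, library quality weights, removal of the length trend, fits restricted to the 6 libraries of a comparison, a replicate block, and leaving out each library in turn. The fits were also run on simulated counts, with the same dispersion for every gene and no library set apart. Those runs cannot show how the fits behave with a library like KO GFP replicate 3. Gene coordinates and exonic lengths are from GENCODE M21, promoter sequences from RefSeq.

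The members and lists were chosen with earlier results of these data known. All members are named. For each comparison the called members, or the 5 of smallest p, are given with their difference, and single libraries are given for chosen fibrosis genes and each called member. Of the other lists, up to 4 called genes are named per list and comparison, by smallest p, and where none was called the gene of smallest p in a comparison that is given beside it.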

Additional observations from a re-analysis of the deposited data

Results flagged for a closer look

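Col3a1, a fibrillar collagen chain, differed in opposite directions between MET/CAT and GFP livers of the 2 genotypes. All 3 KO MET/CAT libraries lay below all KO GFP libraries and all 3 WT MET/CAT libraries lay above all WT GFP libraries. The difference between the 2 responses was −1.21 on the log2 scale (SE 0.38), and limma's adjusted p over all genes was 0.265, so it did not pass the test. It ranged from −1.39 to −0.79 over the other settings and from −1.47 to −0.88 with each library left out.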

How the results depend on the processing

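The Timp1 rise in MET/CAT over GFP KO livers passed the test in every setting tried, and no difference reversed among the called members and the 5 of smallest p in each comparison. Others near 0 did: Col1a1 in MET/CAT over GFP KO livers was −0.04 as reported but 0.26 without KO GFP replicate 3, 0.14 without KO MET/CAT replicate 2, 0.14 with quality weights and 0.04 with the length trend removed, Lrat there was −0.23 but 0.08 without KO MET/CAT replicate 1, and Acta2 in WT livers was 0.53 but −0.0030 with quality weights. Library quality weights gave 13 called members for KO over WT in GFP livers, 7 for MET/CAT over GFP in WT livers, 5 in KO livers, 6 averaged over genotypes, 1 for KO over WT averaged over plasmids and 4 for the interaction. These weights ran from 0.24 for KO GFP replicate 3 to 7.25 for WT GFP replicate 1. DESeq2 called 4 members for MET/CAT over GFP in WT livers, 6 in KO livers, 6 averaged and 1 for the interaction. For the same plasmid comparison edgeR called 2 in KO livers (Mmp14 and Timp1) and 3 averaged (Mmp14, Tgfb1 and Timp1). With 1 library left out, called members numbered 0 to 3 for MET/CAT over GFP in WT livers, 1 to 2 in KO livers and 2 to 4 averaged, the 4 being reached without KO GFP replicate 3 and without WT MET/CAT replicate 1. The median of members for KO over WT in GFP livers was 0.41 with equal library totals and 0.17 to 0.39 with 1 library left out. Equal totals gave −0.0736 for MET/CAT over GFP in KO livers and 0.15 averaged, and split all genes called into 83 higher and 108 lower in KO livers, against 119 and 55 as reported, and into 224 and 424 averaged, against 333 and 194. The cause was not tested.

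Over all genes, quality weights called 4575 for KO over WT in GFP livers, 2615 for MET/CAT over GFP in WT livers, 1635 in KO livers, 2377 averaged, 160 for KO over WT averaged and 1374 for the interaction, against 1, 47, 174, 527, 2 and 0 as reported. DESeq2 called 51 higher and 67 lower for KO over WT in GFP livers, 8 and 26 in MET/CAT livers, 348 and 219 for MET/CAT over GFP in WT livers, 486 and 442 in KO livers, 663 and 476 averaged, 16 and 23 for KO over WT averaged and 73 and 82 for the interaction. Leaving out 1 library gave 1 to 10 for KO over WT in GFP livers, 0 to 12 in MET/CAT livers, 3 to 372 for MET/CAT over GFP in WT livers, 48 to 263 in KO livers and 277 to 720 averaged.

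Correlations of same-numbered deviations ran from −0.195 to 0.28 over the 4 comparisons. With 3 libraries in a group they cannot settle whether the replicate numbers pair the libraries. With a replicate block, members called were 3 for MET/CAT over GFP in KO livers (Eln added, adjusted p = 0.0497), 3 averaged (Des added, adjusted p = 0.047) and 0 in the other comparisons. The Mmp14 call in KO livers also ended in a fit of the 6 KO libraries alone (adjusted p = 0.0692). Timp1 in KO GFP livers rests on 15 reads and Lox in WT GFP livers on 21, which limits their fold changes.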
